A study of Mus musculus with 8 samples.

Results

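The hypoxia and glycolysis genes described here are 37 genes taken from a list of glucose transporters, glycolytic enzymes and established targets of the hypoxia-inducible factors (HIFs). They were found by name on the arrays, where 19778 genes were tested in all. All 37 were on the array, all 37 were tested, and the probe representing each was well above background on all 8 arrays. They divide into 14 glycolytic enzymes and 23 other HIF targets. The tissue was ovarian tumour from female mice of the C57BL/6JTgMISIIR-TAg strain. The strain carries a transgene in which the promoter of Amhr2, the type II receptor for Müllerian inhibiting substance, drives the SV40 T antigen, so all 8 tumours arose with the same oncogene. Both groups bore tumours of about 500 mm3. The AZD1480 group (4 mice) received 30 mg/kg AZD1480, an inhibitor of the kinases JAK1 and JAK2, in 0.5% hypermellose and 0.1% Tween 80. The vehicle group (4 mice) received the same carrier without drug. Tumours were collected 6 h later, and RNA of each went on a separate one-colour array. The comparison addressed how these transcripts stand shortly after JAK inhibition.

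Cells low in oxygen stabilise the alpha subunits of HIF, which otherwise are hydroxylated by prolyl hydroxylases and degraded. HIF then binds short DNA elements with the core RCGTG and raises the transcription of genes for glucose uptake, glycolysis, lactate export, mitophagy and collagen modification. Many tumours run glycolysis at a high rate even with oxygen present, and JAK-STAT3 signalling has been described as one of the inputs that increase Hif1a transcription.

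An array value below is the log2 processed intensity minus the 75th percentile of its array, so it is a relative level of one probe. Such values are compared between arrays for the same probe and never between genes. A log2 difference is the AZD1480 mean minus the vehicle mean, with limma's moderated standard error, and n is 4 arrays per group throughout. Values of single arrays are listed in the order of replicates 1 to 4. Replicates 1 and 2 of each group were on slide 1, and replicates 3 and 4 were on slide 2.

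One array stood apart from the rest. AZD1480 replicate 1 correlated with the other arrays at a mean r of 0.884 across genes, where the other arrays had 0.948 to 0.961. It was the highest of the 8 arrays for 28.5% of all genes and the lowest for 23.8%. Its markers of ciliated cells averaged -5.30 relative to the vehicle mean, against -0.079 to 0.039 on the other AZD1480 arrays and -0.24 to 0.39 on the vehicle arrays. Gene differences and list medians whose sign turned, or that moved by over 1.5 times, when this array was left out are therefore given both with and without it. Of 11 epithelial markers tested, 9 were well above background on all 8 arrays, among them Wt1. Amhr2, looked at after the values were seen, was at 6.83, 0.62, 0.43 and -0.75 in AZD1480 tumours and 5.39, 0.55, 1.43 and 0.068 in vehicle tumours, so replicate 1 of each group was the highest of its group. In bulk tissue such as this, fewer cells of a type and less RNA per cell cannot be told apart.

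The promoters of the 6 members with the smallest p that hold the HIF core are shown because they hold the letters that HIF is known to bind. The letters searched were ACGTG and GCGTG on both strands, in the 250 bases before the transcription start (RefSeq, build GRCm38.p6). The windows are printed on the strand of the gene, and capitals mark each match. CACGTG, an E-box that contains ACGTG on both strands, counts here as overlapping matches.
Higd1a promoter, chr9:121857797-121858046, minus strand: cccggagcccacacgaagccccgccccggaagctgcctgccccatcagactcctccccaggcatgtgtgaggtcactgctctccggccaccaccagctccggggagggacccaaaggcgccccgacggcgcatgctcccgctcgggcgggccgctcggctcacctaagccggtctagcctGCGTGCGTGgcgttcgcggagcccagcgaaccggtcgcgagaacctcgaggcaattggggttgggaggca
Pfkfb3 promoter, chr2:11553930-11554179, minus strand: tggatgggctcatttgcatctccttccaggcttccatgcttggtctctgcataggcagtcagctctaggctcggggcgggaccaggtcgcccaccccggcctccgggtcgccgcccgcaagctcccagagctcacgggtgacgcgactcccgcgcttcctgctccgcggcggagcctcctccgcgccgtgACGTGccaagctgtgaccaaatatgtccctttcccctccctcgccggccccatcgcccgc
Ddit4 promoter, chr10:59951771-59952020, minus strand: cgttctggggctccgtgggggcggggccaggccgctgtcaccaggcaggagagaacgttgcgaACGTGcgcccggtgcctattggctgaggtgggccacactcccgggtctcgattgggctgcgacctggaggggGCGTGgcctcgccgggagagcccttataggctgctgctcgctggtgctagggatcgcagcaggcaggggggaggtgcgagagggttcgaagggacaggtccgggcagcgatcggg
Ak4 promoter, chr4:101419039-101419288, plus strand: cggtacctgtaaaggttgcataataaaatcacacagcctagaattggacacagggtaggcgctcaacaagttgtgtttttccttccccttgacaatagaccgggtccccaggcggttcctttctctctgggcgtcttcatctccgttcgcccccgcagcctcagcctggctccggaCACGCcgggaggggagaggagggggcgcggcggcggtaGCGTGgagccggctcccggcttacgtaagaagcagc
Bnip3 promoter, chr7:138909507-138909756, minus strand: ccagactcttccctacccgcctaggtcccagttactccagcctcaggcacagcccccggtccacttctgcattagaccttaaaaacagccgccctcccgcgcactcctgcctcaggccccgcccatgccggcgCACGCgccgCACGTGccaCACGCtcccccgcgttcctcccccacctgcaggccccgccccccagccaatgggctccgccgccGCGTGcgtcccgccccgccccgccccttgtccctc
Ldha promoter, chr7:46845554-46845803, plus strand: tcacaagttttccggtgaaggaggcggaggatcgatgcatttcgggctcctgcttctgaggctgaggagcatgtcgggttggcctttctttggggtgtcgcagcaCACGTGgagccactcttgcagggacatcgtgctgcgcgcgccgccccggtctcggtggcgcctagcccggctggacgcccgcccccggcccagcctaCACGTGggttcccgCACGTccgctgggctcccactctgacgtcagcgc

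The Ldha window holds CACGTG 2 times, and its core matches begin 145, 144, 48, 47 and 34 bases before the start. In the Bnip3 window the matches begin 117, 108, 107, 99 and 35 bases before the start. Those of Higd1a begin 70 and 66 bases before the start and overlap each other. The single match of Pfkfb3 begins 60 bases before the start, those of Ddit4 187 and 115, and those of Ak4 74 and 36. For genes with several windows in the table (Pfkfb3, Ak4 and Ldha among those printed) the first listed was used.

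A window was listed for 33 of the 37 members, and 26 of these 33 held the core (78.8%, exact 95% interval 61.1% to 91.0%). Among the 13130 tested genes with a window the share was 51.6%, and among all 27025 windows it was 38.6%. It was 18 of 19 among the other HIF targets (94.7%) and 8 of 14 among the glycolytic enzymes (57.1%). Aldoa, Tpi1, Gpi1, Pkm, Hk1 and Eno2 were the 6 enzymes without a match in this window, and Car12 was the 1 other target without one. Member windows also had a higher G and C content, with a median of 62.8% against 58.4% for tested genes, and 19 CpG dinucleotides against 14. The members were listed as glycolysis genes and established HIF targets, so their share with the HIF core is not independent of that choice. The interval is therefore no test against the other genes. The part of base composition in the share with the core was not tested. CACGTG stood in 2 of 33 member windows (6.06%), against 7.60% of those of tested genes. TTCNNNGAA, the consensus of a STAT site, stood in 0 of 33 (exact 95% interval up to 10.6%), against 6.20%. These matches describe letters in a window and do not show binding.

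Most of the hypoxia and glycolysis genes were at higher values in the AZD1480 tumours, but none passed the test over all genes. The log2 difference was above 0 for 32 of 37 members, where 56.5% of all genes tested were above 0. Its median was 0.42 over the members and 0.045 over all genes. By limma with Benjamini-Hochberg adjustment 0 members passed, as did 0% of all genes, and the members' adjusted p ran from 0.974 to 0.996. At an unadjusted p under 0.05 there were 2 members with a higher value, Higd1a and Pfkfb3, beside 1.72% of all genes. None had a lower value at that level, beside 1.74% of all genes.

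The groups overlapped for every member. Values of all 4 AZD1480 arrays above all 4 vehicle arrays were found for 0 members, where 1.21% of all genes had this. For 16 members exactly 3 of the 4 AZD1480 arrays lay above every vehicle array, a pattern seen in 8.71% of all genes. Those 16 are Pfkl, Pfkp, Aldoa, Pgk1, Pgam1, Eno2, Pkm, Ldha, Pdk1, Egln3, Bnip3, Higd1a, Ak4, P4ha2, Adm and Ddit4. In all of these except Eno2 and P4ha2, the AZD1480 array within or below the vehicle range was replicate 2, as the map of the members by array shows.

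**Figure D1:**
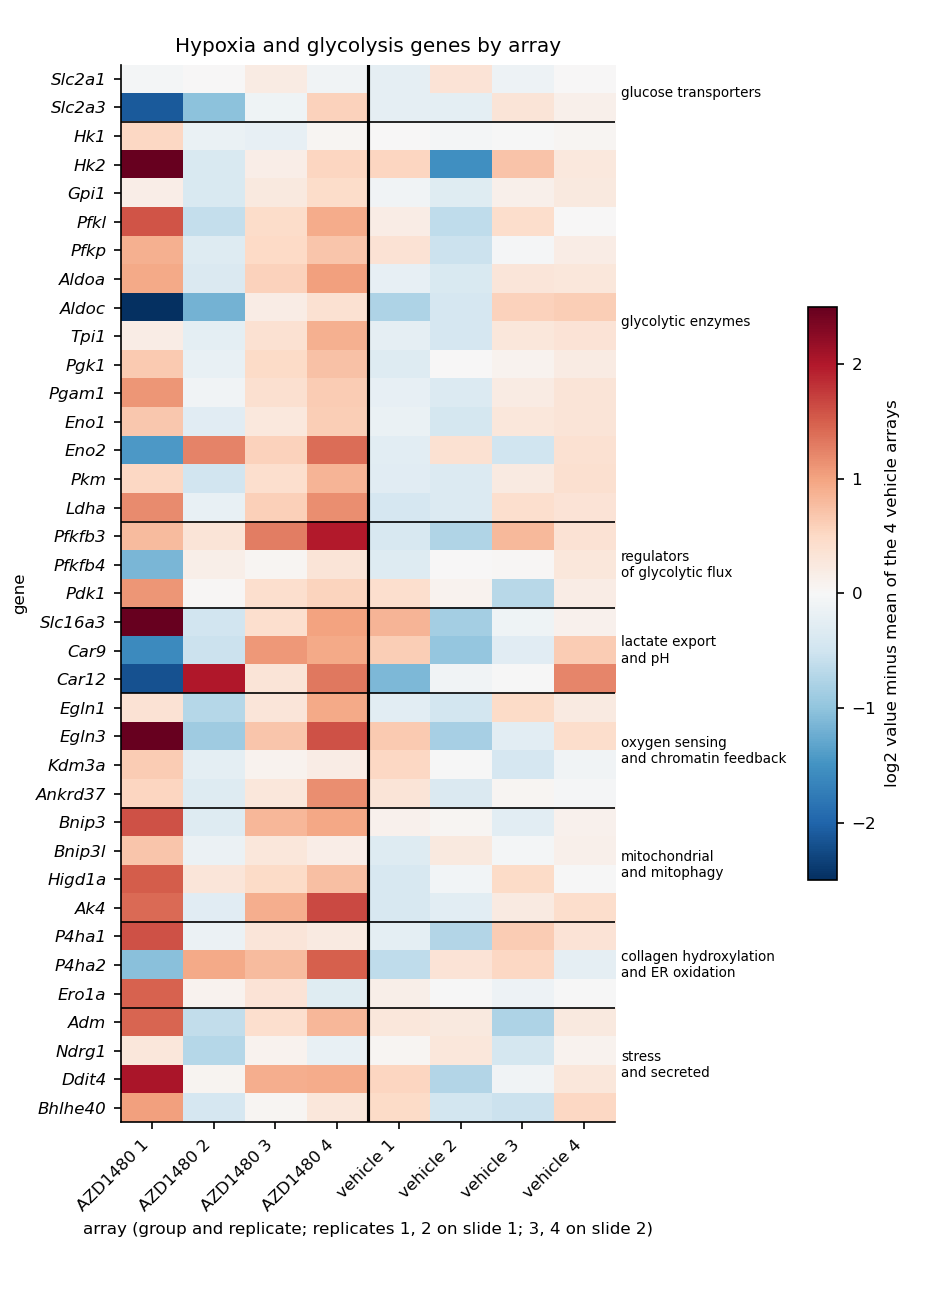
Each cell is the log2 value of a gene (vertical axis, grouped by role) on an array (horizontal axis, AZD1480 left and vehicle right) minus the mean of the 4 vehicle arrays. The colour scale ends at 2.5 in either direction, and values beyond it have the end colour. AZD1480 replicates 1, 3 and 4 are mostly red, with 24, 21 and 27 of 37 genes above all vehicle arrays, while replicate 2 has 3. These counts were not made over all genes.

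Glucose enters cells through facilitative transporters, of which the list holds Slc2a1 and Slc2a3. Slc2a1, the broadly expressed transporter, was at 2.35, 2.40, 2.61 and 2.31 in AZD1480 tumours and 2.18, 2.73, 2.28 and 2.40 in vehicle tumours. All 4 AZD1480 values lay inside the vehicle range, and the difference was 0.023 ± 0.17 (unadjusted p = 0.895), or 0.045 without AZD1480 replicate 1. Slc2a3, a high-affinity transporter known from neurons, was at -1.06, 0.03, 0.94 and 1.63 in AZD1480 tumours and 0.83, 0.82, 1.38 and 1.18 in vehicle tumours. Replicates 1 and 2 of AZD1480 were below every vehicle array and replicate 4 was above them, which gave -0.67 ± 0.54 (unadjusted p = 0.249) with all arrays and -0.19 without AZD1480 replicate 1. The median of the 2 transporters was -0.32, and -0.071 without that array.

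Of the 14 glycolytic enzymes, 13 had a log2 difference above 0, with a median of 0.43 and no adjusted p under 0.05. Ldha, which reduces pyruvate to lactate, had the smallest p of them. Its values were 6.32, 4.95, 5.74 and 6.29 in AZD1480 tumours and 4.71, 4.80, 5.55 and 5.49 in vehicle tumours. The 3 AZD1480 arrays other than replicate 2 exceeded every vehicle array, and replicate 2 exceeded only the vehicle arrays of its own slide. The difference was 0.69 ± 0.36 (1.61-fold, unadjusted p = 0.094, limma). On slide 1 alone it was 0.88, on slide 2 alone 0.50, and with AZD1480 replicate 1 left out 0.52, so its sign was the same in each.

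Pgam1, the phosphoglycerate mutase, was at 5.44, 4.24, 4.74 and 4.97 in AZD1480 tumours and 4.12, 3.99, 4.53 and 4.65 in vehicle tumours. Here too 3 of 4 AZD1480 arrays exceeded all vehicle arrays, with replicate 2 inside the vehicle range. Its difference was 0.52 ± 0.29 (unadjusted p = 0.107), and 0.32 without AZD1480 replicate 1.

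The enzymes that open the pathway were less uniform. Hk1 and Hk2, which phosphorylate glucose, differed by 0.047 ± 0.19 and 0.85 ± 0.81. The Hk2 value rests on AZD1480 replicate 1, without which it was 0.11, and for Hk1 it was -0.11. Gpi1, the glucose phosphate isomerase, differed by 0.12 ± 0.22. Pfkl and Pfkp, the liver-type and platelet-type subunits of phosphofructokinase, had 0.59 ± 0.47 and 0.44 ± 0.31, and without AZD1480 replicate 1 they had 0.26 and 0.29.

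Aldolase splits the resulting sugar diphosphate, and its isoforms had opposite signs. Aldoa differed by 0.55 ± 0.34, with 3 of 4 AZD1480 arrays above all vehicle arrays. Aldoc, the isoform known from brain, was the 1 enzyme of 14 below 0, at -0.98 ± 0.82. On AZD1480 replicate 1 it had its lowest value, and without that array the difference was -0.20.

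The next enzymes of the pathway had differences between 0.30 and 0.42. Tpi1, the triosephosphate isomerase, had 0.30 ± 0.29, and Pgk1, the first ATP-forming enzyme, had 0.42 ± 0.24. Pkm, the pyruvate kinase listed in the files as Pkm2, had 0.33 ± 0.32. Eno1, the main enolase, had 0.32 ± 0.28, or 0.20 without AZD1480 replicate 1. The values of Eno1 are uncertain because the mouse genome holds a near-identical copy, Eno1b. None of these 4 reached an unadjusted p under 0.05.

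Eno2, the neuronal enolase, is given on every array because of its values, which were seen first. It was at -4.15, -1.48, -2.14 and -1.31 in AZD1480 tumours and -2.98, -2.34, -3.21 and -2.34 in vehicle tumours. Replicate 1 was the lowest of all 8 arrays, and the other 3 AZD1480 arrays were above every vehicle array. The difference was 0.44 ± 0.61 with all arrays (unadjusted p = 0.49) and 1.07 ± 0.31 without AZD1480 replicate 1 (unadjusted p = 0.0106 and adjusted p = 0.996, limma).

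The regulators of glycolytic flux were led by Pfkfb3, which makes the allosteric activator of phosphofructokinase. Its values were 0.43, -0.056, 0.91 and 1.61 in AZD1480 tumours and -0.78, -1.12, 0.43 and -0.013 in vehicle tumours. On each slide both AZD1480 arrays were above both vehicle arrays, but slide 2 was higher in both groups and the groups overlapped across slides. The difference was 1.09 ± 0.46, or 2.13-fold (unadjusted p = 0.0437, adjusted p = 0.974, limma). On slide 1 alone it was 1.14, on slide 2 alone 1.05, and with AZD1480 replicate 1 left out 1.19. A second kept probe of Pfkfb3 gave 1.28 with all arrays. Pfkfb4, a second enzyme of the same family, had -0.16 ± 0.33, and its sign turned without AZD1480 replicate 1, to 0.17.

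Pdk1, a kinase that inactivates pyruvate dehydrogenase and so keeps pyruvate out of the mitochondria, was at 0.90, -0.17, 0.23 and 0.36 in AZD1480 tumours and 0.22, -0.097, -0.88 and -0.015 in vehicle tumours. The 3 AZD1480 arrays other than replicate 2 were above every vehicle array, though replicate 3 by a small margin, and vehicle replicate 3 was the lowest. The difference was 0.53 ± 0.31 (unadjusted p = 0.129), and 0.33 without AZD1480 replicate 1.

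**Figure D2:**
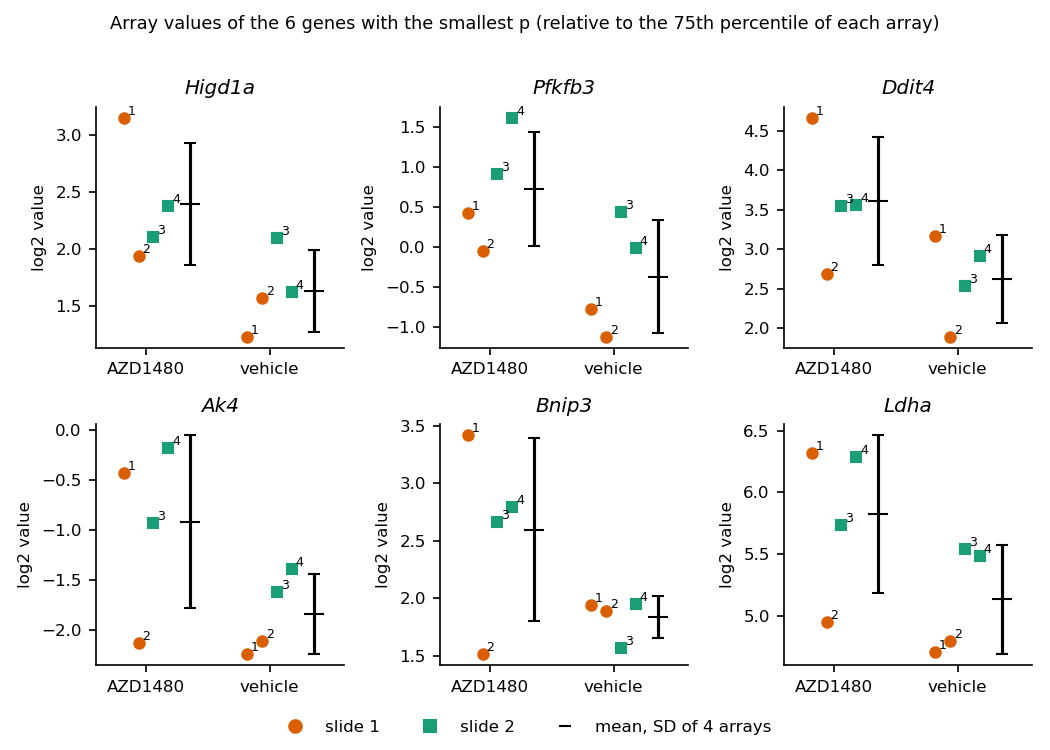
Log2 values (vertical axis, relative to the 75th percentile of each array) of the 6 genes with the smallest unadjusted p, with AZD1480 left of vehicle in each panel. Circles are arrays of slide 1, squares are arrays of slide 2, small numbers are replicates, and bars are the mean and SD of 4 arrays. In every panel the groups overlap. AZD1480 replicate 2 is the lowest AZD1480 array in all 6 panels.

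Lactate export and pH control were represented by 3 members. Slc16a3, the lactate exporter of glycolytic cells, was at 3.24, 0.24, 1.15 and 1.74 in AZD1480 tumours and 1.59, -0.11, 0.62 and 0.84 in vehicle tumours. Replicates 1 and 4 of AZD1480 were above every vehicle array, replicate 1 by the widest margin. The difference was 0.86 ± 0.64 (unadjusted p = 0.217) and 0.31 without AZD1480 replicate 1.

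Car12, a membrane carbonic anhydrase, was at -0.95, 3.22, 1.55 and 2.54 in AZD1480 tumours and 0.10, 1.14, 1.20 and 2.44 in vehicle tumours. It ran the other way, with AZD1480 replicate 1 the lowest of all arrays and replicate 2 the highest. The difference was 0.37 ± 0.91 (unadjusted p = 0.696), and 1.21 without replicate 1. Car9, the carbonic anhydrase often used as a hypoxia marker, differed by -0.022 ± 0.66. Slide 1 alone gave -0.88 and slide 2 alone 0.84, and leaving out AZD1480 replicate 1 gave 0.50. Car9 and Car12 were both lowest on AZD1480 replicate 1, while Slc16a3 was highest there.

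Among the genes of oxygen sensing, Egln3 had the smallest p. It encodes a prolyl hydroxylase that acts on HIF-alpha and is itself a HIF target. Its values were 1.01, -2.82, -1.25 and -0.35 in AZD1480 tumours and -1.27, -2.77, -2.19 and -1.50 in vehicle tumours. AZD1480 replicate 2 was the lowest of the 8 arrays, and the other 3 were above every vehicle array. The difference was 1.08 ± 0.77 (2.12-fold, unadjusted p = 0.2) and 0.46 without replicate 1.

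Ankrd37, an ankyrin repeat protein known as a HIF target, was at 0.36, -0.50, 0.11 and 0.99 in AZD1480 tumours and 0.15, -0.53, -0.12 and -0.20 in vehicle tumours. Replicates 1 and 4 of AZD1480 were above the vehicle range and replicate 4 was the highest. The difference was 0.41 ± 0.32 (unadjusted p = 0.231). Egln1, the main prolyl hydroxylase of HIF-alpha, and Kdm3a, a histone demethylase, had 0.22 ± 0.38 and 0.17 ± 0.26. Without AZD1480 replicate 1 the Kdm3a difference was 0.01.

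The 4 mitochondrial genes had the highest median of the 8 roles, at 0.76. Without AZD1480 replicate 1 it was 0.50, as was the median of the lactate export and pH genes. Higd1a, a small protein of the inner mitochondrial membrane that associates with the respiratory chain, had the smallest p of all 37 members. It was at 3.15, 1.94, 2.10 and 2.37 in AZD1480 tumours and 1.23, 1.57, 2.10 and 1.62 in vehicle tumours. Replicates 1, 3 and 4 of AZD1480 were above all vehicle arrays, though replicate 3 barely exceeded vehicle replicate 3. The difference was 0.76 ± 0.31, or 1.7-fold (unadjusted p = 0.0385, adjusted p = 0.974, limma), and 0.51 ± 0.23 without replicate 1 (unadjusted p = 0.0651).

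Ak4, an adenylate kinase of the mitochondrial matrix listed in the files as Ak3l1, was at -0.43, -2.13, -0.93 and -0.19 in AZD1480 tumours and -2.23, -2.11, -1.62 and -1.39 in vehicle tumours. AZD1480 replicate 2 fell between the vehicle arrays of its slide, and the other 3 were above all vehicle arrays. The difference was 0.92 ± 0.43 (unadjusted p = 0.0671), with 0.89 within slide 1 and 0.95 within slide 2. The mitophagy receptors Bnip3 and Bnip3l differed by 0.76 ± 0.38 and 0.25 ± 0.22, and by 0.49 and 0.10 without AZD1480 replicate 1. All 3 kept probes of Bnip3 were above 0 with all arrays, from 0.61 to 0.77.

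The collagen and endoplasmic reticulum group had differences above 0 in 3 of 3 members, with unequal support. Ero1a, the oxidase that drives disulfide formation, was at -2.25, -3.63, -3.38 and -4.02 in AZD1480 tumours and -3.58, -3.73, -3.84 and -3.72 in vehicle tumours. Its difference of 0.40 ± 0.36 (unadjusted p = 0.296) rests on replicate 1, without which it was 0.043. Replicates 1 and 3 of AZD1480 were above the vehicle range and replicate 4 was below it. P4ha1, a catalytic subunit of collagen prolyl hydroxylase, was at 0.13, -1.62, -1.16 and -1.23 in AZD1480 tumours and -1.72, -2.20, -0.83 and -1.13 in vehicle tumours.

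Only replicate 1 of AZD1480 exceeded the vehicle range for P4ha1, and the difference was 0.50 ± 0.45 (unadjusted p = 0.297), or 0.13 without that array. P4ha1 was the 1 member of 12 with several kept probes whose probes lay over 0.5 apart. Its dimmer probe gave 1.08 with all arrays (unadjusted p = 0.0418 when every probe is fitted). The 2 probes are at chr10:58835625-58835684 and chr10:58835012-58835071 on mm9, the build of the array files.

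P4ha2, the partner isoform, is likewise given on every array because of its values. It was at -0.067, 1.93, 1.77 and 2.47 in AZD1480 tumours and 0.35, 1.31, 1.49 and 0.74 in vehicle tumours. As for Eno2, replicate 1 was the lowest array and the other 3 AZD1480 arrays were above every vehicle array. The difference was 0.55 ± 0.55 with all arrays and 1.08 ± 0.32 without AZD1480 replicate 1 (unadjusted p = 0.0124, adjusted p = 0.996, limma).

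Among stress and secreted factors, Ddit4 had the smallest p. It encodes an inhibitor of mTOR signalling that is induced by hypoxia and other stresses. Its values were 4.66, 2.69, 3.54 and 3.56 in AZD1480 tumours and 3.17, 1.90, 2.53 and 2.92 in vehicle tumours. Within each slide the AZD1480 replicates 1, 3 and 4 exceeded both vehicle arrays, and replicate 2 lay between them. The difference was 0.98 ± 0.45, or 1.98-fold (unadjusted p = 0.0592), and 0.63 without replicate 1.

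Adm, which encodes the vasodilator peptide adrenomedullin, was at 0.75, -1.34, -0.30 and 0.11 in AZD1480 tumours and -0.44, -0.46, -1.48 and -0.48 in vehicle tumours. The vehicle arrays were close together except replicate 3, and AZD1480 replicate 2 was near that low value. The difference was 0.52 ± 0.46 (unadjusted p = 0.292), and 0.20 without AZD1480 replicate 1. Ndrg1, a stress-responsive gene, had -0.13 ± 0.26, and Bhlhe40, a transcriptional repressor, had 0.24 ± 0.39. Without that array Ndrg1 had -0.27, and the sign of Bhlhe40 turned, to -0.029. Over the 4 stress and secreted factors the median was 0.38, or 0.088 without it.

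**Figure D3:**
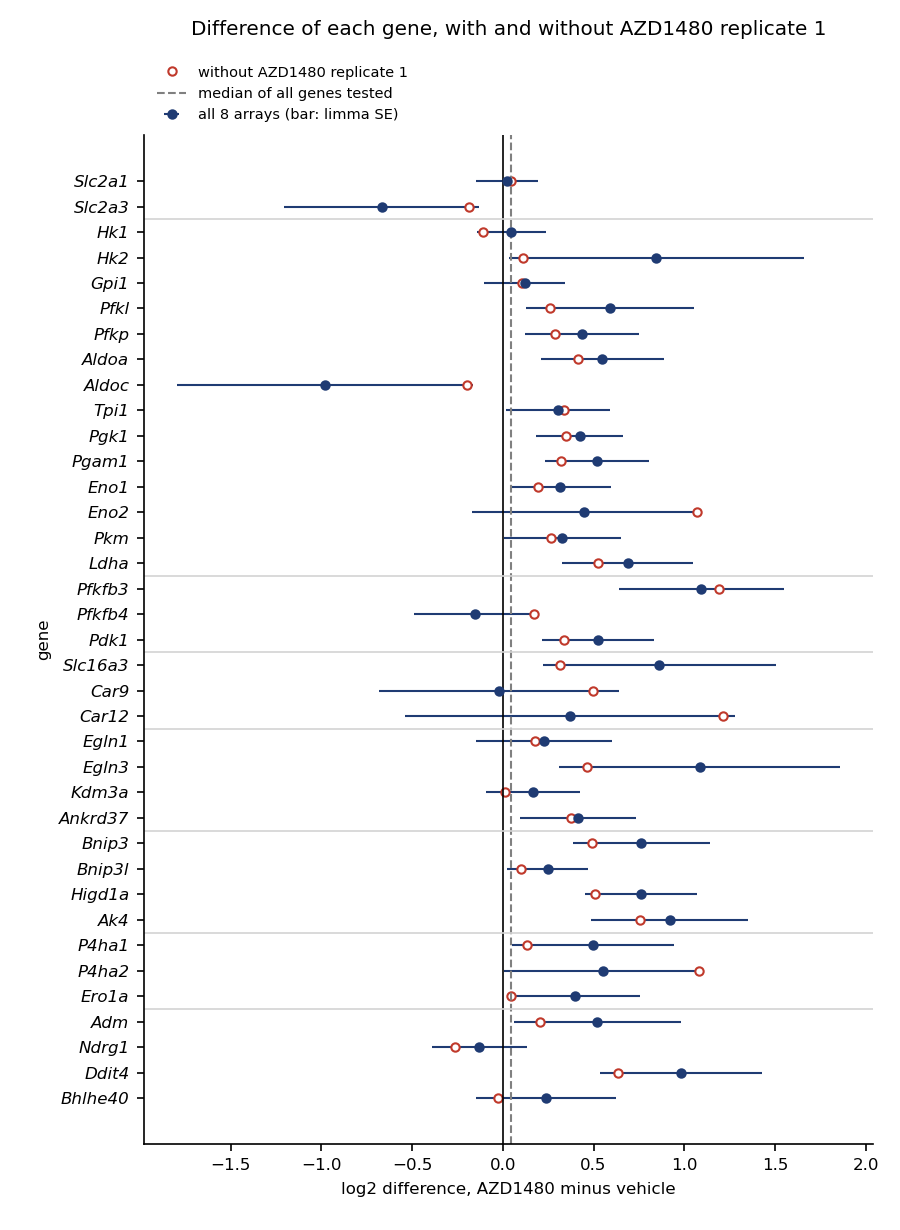
Log2 difference (horizontal axis, AZD1480 minus vehicle) of each of the 37 genes (vertical axis, grouped by role). Filled points are all 8 arrays with limma's standard error as a bar, open circles leave out AZD1480 replicate 1, and the dashed line is the median of all genes tested, at 0.045. Eno2, P4ha2 and Car12 lie farther right without that array, and Hk2, Egln3 and Slc16a3 lie nearer to 0.

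The mean over the members differed from array to array within both groups. AZD1480 replicate 4 averaged 0.75 over the 37 members relative to the vehicle mean, replicate 1 averaged 0.56, replicate 3 0.42 and replicate 2 -0.18. The vehicle arrays averaged -0.038, -0.28, 0.068 and 0.25. AZD1480 replicate 2 thus lay between the vehicle arrays. AZD1480 replicate 1 was the highest of the 8 arrays for 19 members and the lowest for 7, where over all genes it was the highest for 28.5% and the lowest for 23.8%. The 7 were Slc2a3, Aldoc, Eno2, Pfkfb4, Car9, Car12 and P4ha2.

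Leaving out 1 array changed how many members reached an unadjusted p under 0.05, but not the sign of the median. Without AZD1480 replicate 1 the median was 0.29, 32 of 37 members were above 0 (53.8% of all genes) and 2 members, Eno2 and P4ha2, had a higher value at that level (2.2% of all genes). Without AZD1480 replicate 2 the median was 0.60, 33 members were above 0 (58.2% of all genes) and 14 members had a higher value at that level (2.14% of all genes). Without AZD1480 replicate 4 the median was 0.27 and 0 members reached that level, as was so without vehicle replicate 2 (median 0.34) and without vehicle replicate 4 (median 0.49). Without AZD1480 replicate 3 or vehicle replicate 1, 1 member did. Among the fits with 1 array left out, shares of all genes were counted only without AZD1480 replicate 1 or 2. The counts of 0 and 1 are therefore not set against a background. By limma's adjusted p, 0 members passed in any of these fits. Within slide 1 the median was 0.32 with 29 of 37 above 0 (55.1% of all genes), and within slide 2 it was 0.38 with 33 of 37 above 0 (52.9% of all genes).

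The glycolytic enzymes and the other HIF targets had like medians. The enzymes had 13 of 14 members above 0 with a median of 0.43, and the other targets 19 of 23 with a median of 0.41. Without AZD1480 replicate 1 the medians were 0.28 and 0.31. Relative to the vehicle mean, the enzymes averaged 0.48, -0.26, 0.36 and 0.74 on the AZD1480 arrays and -0.13, -0.38, 0.22 and 0.29 on the vehicle arrays. The other targets averaged 0.60, -0.13, 0.45 and 0.75 on the AZD1480 arrays and 0.018, -0.22, -0.027 and 0.23 on the vehicle arrays. The classes were closest on AZD1480 replicate 4 and farthest apart on vehicle replicate 3, where the enzymes were the higher.

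The mean of the enzymes minus that of the other targets was -0.089 in AZD1480 tumours (SD 0.053, n = 4), against 0 by construction in vehicle tumours (SD 0.19, n = 4). That gap is smaller than the spread between vehicle arrays, but this spread includes a difference between slides. The vehicle arrays were at -0.15 and -0.15 on slide 1 and at 0.25 and 0.054 on slide 2. The gap between the groups was 0.026 within slide 1 and -0.20 within slide 2. Counting the transporters and flux regulators with the enzymes gave -0.20 with all arrays. The same count without AZD1480 replicate 1, which was added after the data were seen, gave -0.084. The classes were compared by description only.

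**Figure D4:**
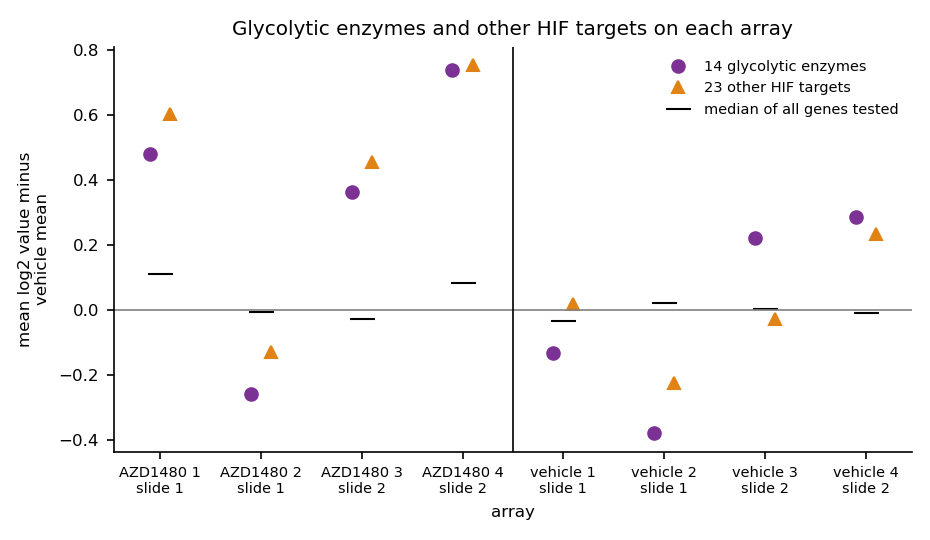
Mean log2 value minus the vehicle mean (vertical axis) of the 14 glycolytic enzymes (circles) and the 23 other HIF targets (triangles) on each array (horizontal axis, AZD1480 left, vehicle right), with the median of all genes tested as a dash. The 2 classes lie closest on AZD1480 replicate 4 and farthest apart on vehicle replicate 3. AZD1480 replicate 4 is the highest for both, and AZD1480 replicate 2 lies below 0 with vehicle replicate 2.

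Transcripts of the HIF system itself were measured as well. Hif1a, the oxygen-regulated subunit, was at 0.64, 0.76, 0.53 and 0.77 in AZD1480 tumours and 0.47, 0.15, 0.58 and 0.82 in vehicle tumours. The AZD1480 values lay within the vehicle range, and the difference was 0.17 ± 0.18 (unadjusted p = 0.365). Epas1, the second alpha subunit, was at 3.55, 1.90, 2.01 and 2.50 in AZD1480 tumours and 2.21, 1.98, 2.92 and 2.98 in vehicle tumours.

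AZD1480 replicate 1 was the highest array for Epas1 and replicate 2 the lowest, and the difference was -0.03 ± 0.41 (unadjusted p = 0.943). Without replicate 1 it was -0.38. Of the 15 HIF pathway components tested, 11 were above 0, the median was 0.066 and 0 reached an unadjusted p under 0.05 in either direction. Their mean was 0.58 on AZD1480 replicate 1, against -0.067 to 0.031 on the other AZD1480 arrays and -0.093 to 0.10 on the vehicle arrays. Without that array 7 of 15 were above 0 and the median was -0.0071. Those with the smallest p were Hif3a, a further alpha subunit, at 0.70 ± 0.41 (0.33 without that array), and Crebbp, a coactivator, at 0.47 ± 0.29. Hif3a was dim, and its probe was well above background on only 2 AZD1480 arrays and 3 vehicle arrays. HIF activity is set mostly by protein stability, which these arrays do not measure.

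HIF targets outside the set had a median like that of the members. Vegfa, the angiogenic growth factor, was at 3.35, 0.54, 0.74 and 1.87 in AZD1480 tumours and -0.021, 0.58, 0.57 and 0.70 in vehicle tumours. Replicates 1, 3 and 4 of AZD1480 were above all vehicle arrays, and replicate 1 was far above them. The difference was 1.17 ± 0.59 (unadjusted p = 0.0861), and 0.59 without that array. Of 26 further HIF targets tested, 22 were above 0 (56.5% of all genes) with a median of 0.41. At an unadjusted p under 0.05 by limma, 2 had a higher value (1.72% of all genes). These were Loxl2, a collagen cross-linking oxidase, at 0.98 ± 0.29, and Tfrc, the transferrin receptor, at 1.32 ± 0.57. For 1 of the 26, Loxl2, all AZD1480 arrays lay above all vehicle arrays (1.21% of all genes). Without AZD1480 replicate 1 the median was 0.37 with 19 of 26 above 0 (53.8% of all genes). For 3 of the 26 all remaining AZD1480 arrays then lay above all vehicle arrays (2.37% of all genes). On AZD1480 replicate 2 the further targets averaged 0.21 relative to the vehicle mean, where the members averaged -0.18.

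Glycolysis genes outside the set had a median of 0.077, or -0.059 without AZD1480 replicate 1. Gapdh, the glycolytic dehydrogenase, was at 6.76, 6.27, 6.73 and 7.22 in AZD1480 tumours and 6.38, 6.21, 6.69 and 6.87 in vehicle tumours. Replicate 4 alone exceeded the vehicle range, and the difference was 0.21 ± 0.25 (unadjusted p = 0.419). Of the 20 further glycolysis genes tested, 11 were above 0, or 8 without that array, and 0 reached an unadjusted p under 0.05. Pdha1 and Pcx, a subunit of pyruvate dehydrogenase and pyruvate carboxylase, had the smallest p and were at -0.67 ± 0.32 and -0.67 ± 0.37. Without AZD1480 replicate 1 Pdha1 was at -0.40. The list includes Ldhb, Pfkm and Slc16a1, and also genes of pyruvate metabolism such as Pdha1, Pdhb and Pcx.

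The citrate cycle enzymes had a median of 0.098 over 16 genes, or 0.032 without AZD1480 replicate 1, with 12 above 0 and 0 at an unadjusted p under 0.05. Sucla2, a subunit of succinate-CoA ligase, was at 0.37 ± 0.23, or 0.19 without that array. The pentose phosphate pathway had a median of 0.096 over 7 genes, or 0.033 without it, with 4 above 0. G6pdx, its entry enzyme, and Tkt, the transketolase, were at 0.50 ± 0.41 and -0.25 ± 0.20, and at 0.10 and -0.43 without that array. The median of all genes tested was 0.045, or 0.023 without it.

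Genes known as STAT3 targets of JAK signalling mostly had differences below 0. Of 11 tested, 2 were above 0 and the median was -0.56, or -0.76 without AZD1480 replicate 1. At an unadjusted p under 0.05, 5 had a lower value, beside 1.74% of all genes, and for 4 all AZD1480 arrays were below all vehicle arrays, beside 1.41% of all genes. Those 5 were Cebpd and Ccnd1 and, named after their values were seen, Socs3, Osmr and Stat3, and of these all but Stat3 did not overlap. Cebpd, a transcription factor of the acute phase response, was at 2.60, 2.03, 2.91 and 2.09 in AZD1480 tumours and 3.57, 3.50, 3.92 and 4.01 in vehicle tumours. Every AZD1480 array was below every vehicle array, and the difference was -1.34 ± 0.25 (unadjusted p = 0.00065, adjusted p = 0.827, limma). Ccnd1, a cyclin of the G1 phase, differed by -1.58 ± 0.31 (unadjusted p = 0.000928, adjusted p = 0.957). AZD1480 replicate 2 averaged -0.85 over this list, the lowest of the 8 arrays, and AZD1480 replicate 1 averaged -0.74. Over the 37 hypoxia and glycolysis genes the mean of replicate 2 was -0.18, inside the range of the vehicle means. Of these 37, replicate 2 was below all vehicle arrays for 9 and above all of them for 3. The same count was not made over all genes, so it has no background to be set against.

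**Figure D5:**
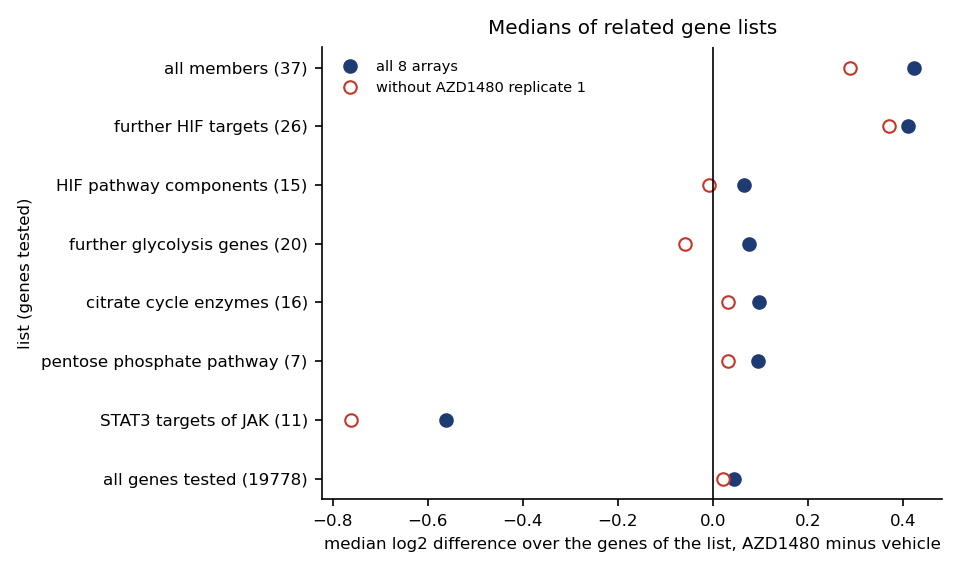
Median log2 difference (horizontal axis, AZD1480 minus vehicle) of the members, of related gene lists and of all genes tested (vertical axis, with the number of genes). Filled points are all 8 arrays and open circles leave out AZD1480 replicate 1. The members and the further HIF targets are at 0.42 and 0.41, the further glycolysis genes are at 0.077 (-0.059 without that array), and the STAT3 targets are at -0.56.

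Markers of several cell types also differed between the arrays. The 13 macrophage markers had 1 above 0 and a median of -0.54, or 3 above 0 and -0.13 without AZD1480 replicate 1. Their mean ran from -1.71 to -0.0017 on the AZD1480 arrays and from -0.16 to 0.20 on the vehicle arrays. At an unadjusted p under 0.05 by limma, 3 had a lower value, beside 1.74% of all genes. These were Fcgr3 (-0.92 ± 0.24), Mrc1 (-1.04 ± 0.31) and, named after its value was seen, Fcgr1. For 2 of the 13, all AZD1480 arrays lay below all vehicle arrays, beside 1.41% of all genes. The 10 ciliated cell markers had a median of -1.37 and were lowest on AZD1480 replicate 1 in 10 of 10, and without that array their median was 0.023. Fibroblast and stroma markers had a median of -0.29 over 10 genes, or 0.083 without that array.

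The 8 erythroid markers had a median of 0.40 with 7 above 0, and without AZD1480 replicate 1 the sign turned, with a median of -0.26 and 2 above 0. Their mean ran from -0.30 to 2.27 on the AZD1480 arrays and from -1.29 to 1.78 on the vehicle arrays. On AZD1480 replicate 1 and vehicle replicate 4 they were high, at 2.27 and 1.78. The 10 endothelial markers had a median of -0.32, with 3 above 0 and 7 below. Vwf and Lyve1 had the smallest p of them, at -1.12 ± 0.32 and -1.17 ± 0.37. The mean of the endothelial markers was -0.74 to -0.11 on the AZD1480 arrays against -0.19 to 0.27 on the vehicle arrays. Epithelial markers had a median of -0.47 over 11 genes, T cell markers -0.49 over 7, B cell markers -0.32 over 4 and neutrophil markers 0.062 over 7. Without AZD1480 replicate 1 these medians were -0.29 for epithelial, -0.076 for T cell, -0.048 for B cell and -0.66 for neutrophil markers. Adipocyte markers had a median of -1.68 over 6 genes, with vehicle replicate 3 at a mean of 3.55. Granulosa and luteal markers had -0.38 over 5, or -1.76 without AZD1480 replicate 1, and differed widely within both groups. Their mean was 3.46, -1.86, -2.02 and -1.44 on the AZD1480 arrays and 2.30, -2.10, 2.21 and -2.42 on the vehicle arrays. Muscle markers had a median of 0.13 over 7 with 4 above 0 and 3 below, or 0.32 without AZD1480 replicate 1. Actc1 had the smallest p of them, at 2.36 ± 0.47. The part of cell composition in the values of the hypoxia and glycolysis genes was not tested.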

How the data were processed

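Total RNA (500 ng per tumour, 1 tumour per mouse) was Cy3-labelled for Agilent one-colour arrays. The submitters' processing notes name Agilent Feature Extraction 9.5.3 as the software. Per the file headers, the processed intensity is background-subtracted and detrended within an array, and it was not scaled between arrays. The authors' deposited value table, on a log2 scale with every column at a median of 8.36, served as an alternative. How its offset was set is not stated in those sources.

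Of 44397 spots per array, 43020 were not controls, for 39429 probes. Names came from the RefSeq accession (26055 probes) or the file's own name (8652), and 4722 had none. Slide 1 was brighter, with 75th percentiles of processed intensity of 4706 to 5795, where slide 2 had 1587 to 2783. An array had 66.9% to 76.4% of its spots well above background. Having only 4 arrays per group limits the precision. Log2 processed intensities were scaled to each array's 75th percentile, and spots of a probe were averaged without outlier-flagged ones. Probes well above background on at least 4 of 8 arrays were kept, and the brightest kept probe stood for a gene. Of the members' 55 probes 54 were kept, and none standing for a gene was saturated.

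The AZD1480 and vehicle groups were compared by a two-sided test of limma 3.58.1 (R 4.3.3, lmFit then eBayes) on treatment alone, with Benjamini-Hochberg adjustment over all 19778 genes. The fit was checked on simulated data. Each array is a different mouse, as the labels give 4 mice per group. Slides were scanned apart. The printed standard errors and p-values do not account for slide, which entered only alternatives, as a block or by fits within each slide. The members and lists were chosen with earlier results of these data known, so no list was tested. Values on every array are given for members with an unadjusted p under 0.05, members without overlap between groups, the 2 with the smallest p in each role, and Hif1a, Epas1, Vegfa and Gapdh. Of each other list up to 2 genes with the smallest p were named, except 1 gene that is not reported here. Alternatives were normexp (offset 50), quantile and median scaling, no filter and a filter on all arrays, the mean of a gene's probes, the authors' table, slide and replicate blocks, fits within slides, array weights, and each array left out. Replicate numbers are shared by the groups, but same-numbered arrays deviated together at r = 0.36, 0.36, 0.13 and -0.059 for numbers 1 to 4, so they were not treated as pairs.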

Additional observations from a re-analysis of the deposited data

Results flagged for a closer look

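In 2 of the 88 groups of 4 arrays looked at, a single array stood farther from the others than Dixon's criterion at the 95% level allows, and chance alone gives about 1 in 20. Both concern vehicle replicate 3 as the lowest array. For Bnip3, the mitophagy receptor, the AZD1480 arrays were at 3.42, 1.51, 2.66 and 2.79 and the vehicle arrays at 1.94, 1.88, 1.56 and 1.95, with a ratio of gap to range of 0.842 in the vehicle group. For Adm, the adrenomedullin gene, the ratio was 0.966 in the vehicle group, where replicate 3 was at -1.48 and 1.00 below the nearest array. On the same slide the AZD1480 arrays of both genes were higher than both vehicle arrays.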

How the results depend on the processing

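No member passed limma's adjusted p under 0.05 in any of the 20 alternatives, with 0 to 14 at an unadjusted p under 0.05. The median of the members stayed above 0, from 0.14 with array weights to 0.60 without AZD1480 replicate 2. Leaving out each array in turn gave 0.27 to 0.60 for the members, 0.27 to 0.61 for the enzymes, 0.27 to 0.54 for the other targets, -0.14 to -0.0060 for enzymes minus other targets, and 31 to 33 members above 0. With array weights the median of the glycolytic enzymes was 0.056 and 26 members were above 0, and the cause was not tested. Shares of all genes were counted for the main fit, the replicate block, fits within slides, and fits without AZD1480 replicate 1 or 2. For the other alternatives they were not counted, so those counts of members have no background beside them. Slide as a block left the members' median at 0.42, with 0 passing and 2 at an unadjusted p under 0.05, and the standard error of Pfkfb3 was 0.23 with it, where it was 0.46 without. The replicate block left the members' median at 0.42 with 0 passing and 6 members at an unadjusted p under 0.05 (2.12% of all genes), and the numbers are not shown to pair the samples.

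Of 820 values of 41 genes under the alternatives, 775 kept their sign, and 21 members kept it in all. The sign turned with array weights for Gapdh (-0.016), Eno1 (-0.019), Hk2 (-0.023), Pkm (-0.030), P4ha1 (-0.046), Bhlhe40 (-0.066), Gpi1 (-0.081), Hk1 (-0.10), Egln1 (-0.17), Pfkfb4 (0.012) and Car9 (0.095). It turned with the mean of kept probes for Epas1 (0.15), with median scaling for Slc2a1 (-0.0035) and with quantile normalization for Hk1 (-0.0033) and Slc2a1 (-0.0034). Within slide 1 it turned for Kdm3a (-0.051), Slc2a1 (-0.077), Eno2 (-0.16) and Epas1 (0.63). Within slide 2 it turned for Hif1a (-0.050), Hk1 (-0.098), Hk2 (-0.14), P4ha1 (-0.22), Slc2a3 (0.0026), Pfkfb4 (0.035), Ndrg1 (0.12) and Car9 (0.84). Leaving out single arrays turned it for Bhlhe40 (-0.029 to 0.46), Hk1 (-0.11 to 0.13), Pfkfb4 (-0.32 to 0.17), Car9 (-0.39 to 0.50), Car12 (-0.18 to 1.21), Ndrg1 (-0.27 to 0.062), Epas1 (-0.38 to 0.17), Slc2a1 (-0.049 to 0.13) and Egln1 (-0.017 to 0.54). The cause was not tested. The whole promoter window of 300 bases left the members' shares at 78.8%, 6.06% and 0%.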
